A study of Homo sapiens with 6 samples.

Results

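Tumour cells can hold back T cells and macrophages through ligands on their surface, secreted lectins and enzymes. The genes described here are 10 such genes, chosen by name, out of the 62710 genes in the FPKM table. They are the PD-1 ligands CD274 (PD-L1) and PDCD1LG2 (PD-L2), CMTM6, which keeps PD-L1 protein at the cell surface, and CD276 (B7-H3). The others are LGALS9 (galectin-9), LGALS3BP (galectin-3-binding protein), the tryptophan-degrading enzyme IDO1, CD47, NT5E (CD73) and TNFRSF14 (HVEM). All 10 averaged 0.1 FPKM or more over the 6 libraries and so were among the 20716 genes tested. IDO1 and LGALS9 passed this filter through their IFNβ-treated libraries.

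RNA was sequenced from HT1080, an established human fibrosarcoma cell line, in 3 untreated libraries and in 3 libraries of cells given IFNβ at 20 ng/mL for 24 h. The labels name human IFNβ, whereas the RNA sequencing methods of the study name mouse IFNβ for both of its cell lines. The cells were grown alone, without T cells or macrophages, and 1 dose and 1 time were measured. The labels do not say whether the libraries came from separate cultures, so the p-values measure only the spread between these libraries. The values are FPKM, that is, fragments corrected for the length of the gene and the depth of the library, which allows levels of different genes to be set side by side.

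Interferon β binds the receptor IFNAR1/IFNAR2 and acts through the kinases JAK1 and TYK2. Signalling leads to a complex with STAT2 and IRF9 that binds interferon-stimulated response elements, repeats of the bases GAAA. GAS is a different element of interferon-responsive genes, and IRF1 binds repeats like those of the response element. CD274 is known as a target of IRF1 in interferon-treated tumour cells, and IDO1 is a long-known interferon-inducible enzyme.

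The starts of the members' genes were searched for these elements in RefSeq promoters of build GRCh38.p14, each 250 bases before to 50 bases after a start. A promoter was given for 8 of the 10 genes, all but PDCD1LG2 and IDO1. The IRF core was spelled as GAAA, any 2 bases, GAAA, on either strand, and the GAS element as TTC, any 3 bases, GAA, which reads the same way on both strands. The 8 are counted by gene and the background by promoter, and only CD276 of the 8 had 2 promoters, neither with a match. The IRF core was found at CD274, LGALS9 and LGALS3BP, that is 3 of 8 genes, and in 3.57% of all 35116 promoters. GAS was found at CD274 alone among the 8, and in 7.66% of all promoters. The matches are shown with the bases around them because these 3 genes are those with an IRF core. Capitals mark the matches, and each sequence reads 5′ to 3′ on the strand of the gene.
CD274, chr9:5450322-5450441, plus strand: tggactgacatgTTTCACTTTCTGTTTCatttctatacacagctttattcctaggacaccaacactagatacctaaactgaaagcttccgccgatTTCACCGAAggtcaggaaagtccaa
LGALS9, chr17:27631169-27631198, plus strand: gttgctttggTTTCTATTTCtttgttaagt
LGALS3BP, chr17:78979962-78979991, minus strand: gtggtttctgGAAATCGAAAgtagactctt
In CD274 the first run of capitals holds 2 overlapping IRF cores, at -208 to -199 and -202 to -193 from the RefSeq start, both on the opposite strand. Its second run is the GAS match at -125 to -117. The LGALS9 match, also on the opposite strand, ends at the first base of the RefSeq transcript, and the LGALS3BP match lies at -58 to -49 on the strand of the gene. By GENCODE release 29 the CD274 window lies before the gene. Those of LGALS9 and LGALS3BP lie inside the bounds of their genes, which start further upstream. A match is a run of letters, and binding was not measured in these libraries.

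After IFNβ, 8 of the 10 genes were differentially expressed (DEGs), all of them higher. A DEG had a Benjamini-Hochberg adjusted p-value under 0.05 over all genes tested (limma on log2(FPKM + 0.1)) and a log2 fold change of 1 or more in either direction. Of all genes tested, 3.49% were DEGs in the higher direction and 0.739% in the lower direction. CD276 and CMTM6 were not DEGs. By the adjusted p-value alone, 9 members were higher, against 15.2% of all genes tested, and 1 was lower, against 17.5%. For the same 9 genes every IFNβ-treated library lay above every untreated one, as for 22.3% of all genes tested, and for CMTM6 every IFNβ-treated library lay below, as for 24.3%. The median log2 fold change of the 10 genes was 1.51, against 0.00 for all genes tested, whose 90th percentile was 0.68. Because these are bulk libraries, a change in a few cells and a change in all cells cannot be told apart, nor can more cells from more RNA per cell.

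**Figure D1:**
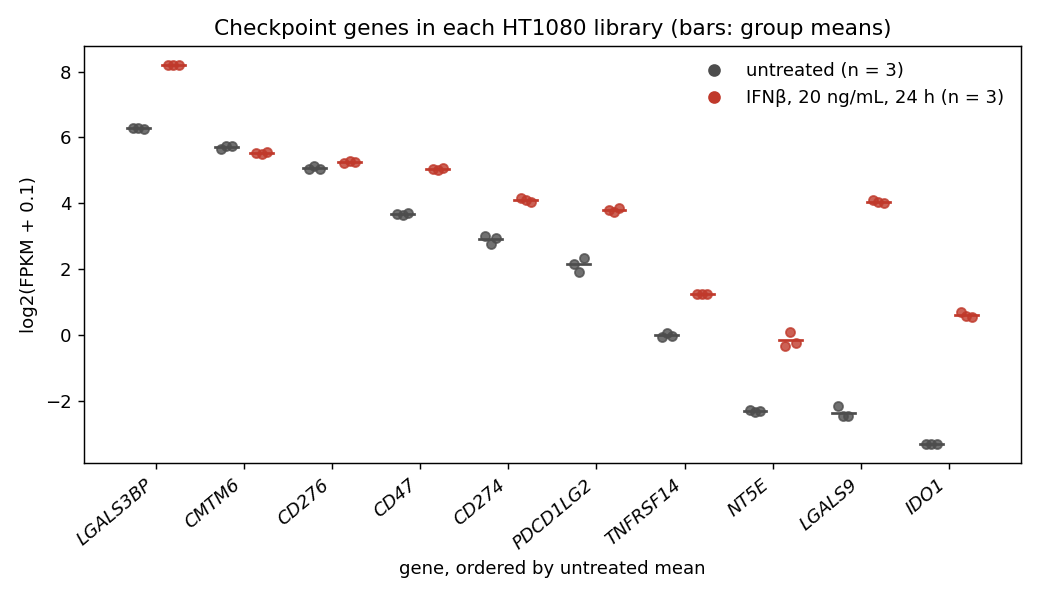
Level of each of the 10 genes in each library as log2(FPKM + 0.1), with genes ordered from left to right by their untreated mean, grey points for the 3 untreated and red points for the 3 IFNβ-treated libraries, and bars for group means. Red points lie above grey points for 9 genes and below them for CMTM6, and LGALS9 moves furthest on this scale, from a mean of 0.0950 to 16.4 FPKM.

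The 2 ligands of PD-1, the receptor that dampens activated T cells, both rose. CD274 (ENSG00000120217) lies on chromosome 9 from 5450503 to 5470566 (GENCODE release 29, GRCh38). CD274 was at 7.85, 6.65 and 7.65 FPKM in untreated cells and at 17.9, 17.0 and 16.4 FPKM after IFNβ. The groups did not overlap, and every treated library was far above the highest untreated one. Its mean rose 2.31-fold, from 7.39 ± 0.643 to 17.1 ± 0.721 FPKM (S.D., n = 3 each), and its log2 fold change was 1.20 (standard error, SE, 0.07, 95% interval 1.04 to 1.37, limma adjusted p = 5.3e-05). PDCD1LG2 (ENSG00000197646) lies on the same chromosome from 5510570 to 5571254, on the same strand. PDCD1LG2 was at 4.39, 3.69 and 4.92 FPKM in untreated cells and at 13.9, 13.3 and 14.3 FPKM after IFNβ. The treated libraries lay close together and far above the untreated ones. The mean rose 3.19-fold, from 4.33 ± 0.620 to 13.8 ± 0.535 FPKM (S.D., n = 3 each), or 1.66 on the log2 scale (SE 0.10, limma adjusted p = 7.1e-05).

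PD-L1 was thus the more abundant PD-1 ligand at the RNA level in both groups, at a lower ratio after IFNβ. The ratio of CD274 to PDCD1LG2 within a library was 1.79, 1.80 and 1.56 in untreated cells and 1.29, 1.28 and 1.15 after IFNβ. All 3 treated ratios were lower than all 3 untreated ones. In an exact two-sided permutation test this gave p = 0.1 (1.72 ± 0.140 against 1.24 ± 0.0788, S.D., n = 3 each), which is the smallest p that 3 libraries against 3 can give. Of 7 ratios computed, each had no overlap between groups and the same p, so none can pass 0.05.

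The genes on either side of this pair were not DEGs. The 2 genes are separated by 40003 bp with no other protein-coding gene between them. PLGRKT, a plasminogen receptor on the other strand before CD274, had a log2 fold change of -0.11, and RIC1, which follows PDCD1LG2, had one of 0.27 (limma adjusted p = 0.44 and 0.0055). Around the 8 DEGs, the nearest 2 protein-coding genes on each side made 30 distinct genes, of which 16 were tested. Only CD274 and PDCD1LG2, each as neighbour of the other, were DEGs among these 16. The remaining ones had log2 fold changes between -0.30 (PRXL2B beside TNFRSF14, with CANT1 beside LGALS3BP also at -0.30) and 0.52 (SNX14, a sorting nexin beside NT5E).

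CMTM6, whose protein binds PD-L1 and keeps it from lysosomal degradation, went the other way from its partner. CMTM6 (ENSG00000091317, chromosome 3 from 32481312 to 32503408) was at 50.2, 53.7 and 52.9 FPKM in untreated cells and at 45.6, 45.3 and 46.8 FPKM after IFNβ. All treated libraries were below all untreated ones, although by little. The log2 fold change was -0.19 (SE 0.03, 95% interval -0.26 to -0.11, limma adjusted p = 0.0042), so that it fell short of the fold threshold. Of its exons, 7.34% (324 bp) overlap those of CMTM7 on the other strand, which averaged 15.1 FPKM in untreated and 16.8 FPKM in treated libraries, and whether the counting used strand is not stated. The ratio of CD274 to CMTM6 was 0.142 ± 0.0165 in untreated cells and 0.372 ± 0.0204 after IFNβ (S.D., n = 3 each). CMTM6 RNA therefore stayed above CD274 RNA in every library.

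Other genes listed as partners or regulators of PD-L1 protein were not DEGs. The list also holds relatives of CMTM6, whose proteins need not act on PD-L1. Of 20 listed, 17 were tested, 0 were DEGs and the median log2 fold change was -0.18. By adjusted p-value alone 2 were higher and 8 lower, against the same 15.2% and 17.5%. An unadjusted p-value under 0.05 was reached by 13 of the 17, against 41.6% of all genes tested, and limma-voom on recovered fragments called 0. Among those at the highest level, the ubiquitin ligase STUB1 averaged 31.6 FPKM untreated and 32.9 FPKM treated (limma adjusted p = 0.36). USP22, a deubiquitinase, averaged 45.5 FPKM untreated and 32.2 FPKM treated, a log2 fold change of -0.50 (SE 0.02, limma adjusted p = 1.1e-05). CMTM4, a relative of CMTM6 that also protects PD-L1, was singled out for its value. It had the lowest log2 fold change of the list, -0.64 (SE 0.03, limma adjusted p = 3.7e-05), and the ratio of CD274 to CMTM4 went from 0.684 ± 0.0701 to 2.48 ± 0.180 (S.D., n = 3 each). CD274 was below CMTM4 in every untreated library and above it in every treated one.

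Of the genes that regulate CD274 transcription, 5 were DEGs, all higher, each known as part of interferon signalling or as induced by it. All 20 listed were tested, and the median log2 fold change was 0.29. Of all genes tested, 3.49% were DEGs in the higher direction. By adjusted p-value alone 12 were higher and 3 lower, against 15.2% and 17.5% of all genes tested. Among the 5, STAT2 had a log2 fold change of 3.35, with 3.88 ± 0.0940 FPKM in untreated and 40.6 ± 0.781 FPKM in treated libraries (S.D., n = 3 each). IRF9, its DNA-binding partner, had a log2 fold change of 2.79, and IRF1 had one of 1.21, from 1.84 ± 0.251 to 4.37 ± 0.0525 FPKM (S.D., n = 3 each). SOCS1, a feedback inhibitor of JAK kinases, had one of 1.15. HIF1A (log2 fold change -0.08), JUN (-0.44) and RELA (0.13), the 3 most abundant of the other regulators, act in other pathways, and none was a DEG. A place in interferon signalling did not by itself make a gene a DEG. The receptor genes IFNAR1 (-0.20) and IFNAR2 (0.32) and the kinases JAK1 (0.38) and TYK2 (0.16) stayed under the fold threshold. So did STAT3 (0.68) and IRF2 (0.72).

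CD276, a B7 family member that is abundant on many solid tumours, differed by little between the groups. CD276 (ENSG00000103855, chromosome 15 from 73683966 to 73714518) was at 32.7, 34.8 and 32.6 FPKM in untreated cells and at 37.1, 38.9 and 37.7 FPKM after IFNβ. The treated libraries were all above the untreated ones, by little. The mean was 1.14 times higher, a log2 fold change of 0.18 (SE 0.03, 95% interval 0.10 to 0.26, limma adjusted p = 0.0071), which is under the fold threshold. In untreated cells it was the most abundant B7 family member of the genes described, above CD274 in every library.

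Among 15 other B7 and butyrophilin genes, 8 were tested and 3 were DEGs, all higher, against 3.49% of all genes tested. The median log2 fold change of the 8 was 0.63. The 3 were the butyrophilins BTN3A1 (log2 fold change 1.55), BTN3A2 (1.06) and BTN3A3 (1.74), whose products take part in phosphoantigen sensing by γδ T cells. They lie close together and are near-identical in sequence, so how fragments were divided between them is uncertain. BTN2A1 (log2 fold change 0.58), BTN2A2 (0.68) and ERMAP (0.03) were the most abundant that were not DEGs. The CD28 and CTLA4 ligands CD80 and CD86 were near the floor, at 0 to 1 and 0 to 4 fragments in any library, and VTCN1 was listed at 0 in all libraries. These 3 were chosen with their values in view.

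Of 18 other checkpoint and costimulatory ligands, 11 were tested and 3 were DEGs, all higher, against 3.49% of all genes tested. The median log2 fold change of the 11 was 0.20. NECTIN2, a ligand of the receptors TIGIT and CD226, went from 33.1 ± 1.05 to 80.9 ± 1.86 FPKM (S.D., n = 3 each), or 1.29 on the log2 scale (SE 0.03, limma adjusted p = 8.6e-07). CEACAM1, an inhibitory adhesion molecule, went from 3 to 17 fragments per library to 248 to 276, and TNFSF18 (GITR ligand) from 1 to 8 fragments to 24 to 26. Both passed the filter only through their treated libraries. PVR, a TIGIT ligand like NECTIN2, averaged 25.3 FPKM untreated and 31.0 FPKM treated and was not a DEG (log2 fold change 0.30). TNFSF9 (0.20) and CD70 (0.12) were not DEGs either. The receptors of these ligands are known mainly from immune cells. Of 13 checkpoint receptors 4 were tested and 0 were DEGs with limma or limma-voom. An unadjusted p-value under 0.05 was reached by 1, against 41.6% of all genes tested. By adjusted p-value alone 0 were higher and 1 lower, against 15.2% and 17.5%. The most abundant receptors were SIRPA (log2 fold change -0.30, limma adjusted p = 0.0086), LAG3 (0.51) and SIRPG (0.69).

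LGALS9, a galectin that binds TIM-3, an inhibitory receptor of T cells, had the largest fitted log2 fold change of the 10 genes, apart from limma-voom, where IDO1 had 8.14 and LGALS9 7.45. IDO1 has only a lower bound for its fold, so the 2 cannot be ranked. LGALS9 (ENSG00000168961, chromosome 17 from 27629798 to 27649560) was at 0.123, 0.0826 and 0.0798 FPKM in untreated cells, or 16, 14 and 15 fragments. After IFNβ it was at 17.0, 16.2 and 15.9 FPKM, or 2993, 2316 and 2617 fragments. The groups were far apart in every library, and the untreated level rested on few fragments. The mean was 172 times higher (0.0950 ± 0.0239 against 16.4 ± 0.592 FPKM, S.D., n = 3 each). The log2 fold change with a pseudocount of 0.1 was 6.41 (SE 0.10, limma adjusted p = 1.3e-07), rank 21 of the 20716 genes tested, and it ran from 3.99 with a pseudocount of 1 to 7.45 over the settings tried. Its paralogs LGALS9B and LGALS9C, near-identical in sequence, reached no more than 4 and 2 fragments per library, so little was assigned to them.

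LGALS3BP, a secreted glycoprotein that binds galectins and is also known as an interferon-induced protein, was the most abundant of the 10 in both groups. LGALS3BP (ENSG00000108679, chromosome 17 from 78971238 to 78980109, minus strand) was at 77.8, 78.0 and 76.3 FPKM in untreated cells and at 294, 295 and 295 FPKM after IFNβ. Libraries of a group were nearly equal, and the groups were far apart. The mean rose 3.81-fold, from 77.4 ± 0.902 to 295 ± 0.654 FPKM (S.D., n = 3 each), or 1.93 on the log2 scale (SE 0.02, limma adjusted p = 7e-09). In FPKM its gain of 217 was the largest of the 10, and the next was that of CD47 at 20.2.

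The other galectins did not share the change of LGALS9. Of 15 listed, 5 were tested, 0 were DEGs and 7 were listed at 0 in all libraries, with a median log2 fold change of -0.08. Of the 5, 3 had an unadjusted p-value under 0.05, against 41.6% of all genes tested, and limma-voom called 0. By adjusted p-value alone 2 were higher and 1 lower, against 15.2% and 17.5%. LGALS1, the most abundant of them, was at 468 ± 22.4 FPKM untreated and 424 ± 10.1 FPKM treated (S.D., n = 3 each). LGALS3, whose protein LGALS3BP binds, was at 9.06 ± 0.348 FPKM untreated and 12.2 ± 0.270 FPKM treated (S.D., n = 3 each), or 0.42 on the log2 scale (SE 0.04, limma adjusted p = 0.00029). LGALS8 had a log2 fold change of 0.64. The ratio of LGALS3BP to LGALS3 went from 8.54 ± 0.253 to 24.2 ± 0.582 (S.D., n = 3 each).

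IDO1 starts the kynurenine pathway, which uses up tryptophan that T cells need. IDO1 (ENSG00000131203, on chromosome 8) was listed at 0 in all 3 untreated libraries, with 0 fragments, and at 1.53, 1.40 and 1.36 FPKM after IFNβ, from 164, 122 and 137 fragments. It was thus seen in every treated library and in none of the untreated ones. A count of 0 allows up to 3 fragments per library, worth 0.0309 FPKM as a mean over the untreated libraries. By the deposited values alone, IDO1 was thus at least 46.2-fold higher after IFNβ (1.43 ± 0.0874 FPKM, S.D., n = 3). Its fitted log2 fold change of 3.93 (limma adjusted p = 1.5e-05) depends on the pseudocount, and went from 1.28 to 8.14 over the settings tried. Even after IFNβ its FPKM was the second lowest of the 10.

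The rest of the pathway gave 1 DEG, which was higher, against 3.49% of all genes tested. Of 18 genes listed, 12 were tested, and the median log2 fold change was -0.04. The DEG was WARS1, the tryptophanyl-tRNA synthetase, which charges tRNA with tryptophan and does not degrade it. It went from 21.8 ± 0.112 to 99.9 ± 1.11 FPKM (S.D., n = 3 each), or 2.19 on the log2 scale (SE 0.02, limma adjusted p = 5.2e-09). SLC7A5 and SLC3A2, the subunits of a tryptophan transporter, had log2 fold changes of 0.01 and 0.16, and GOT2, an aminotransferase, had one of -0.21, and none was a DEG. IDO2, which starts 6169 bp after IDO1, was listed at 0 in all libraries.

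CD47 is the surface signal that tells macrophages, through SIRPA, not to engulf the cell. CD47 (ENSG00000196776, chromosome 3 from 108043094 to 108091862, minus strand) was at 12.6, 12.5 and 12.9 FPKM in untreated cells and at 32.7, 32.5 and 33.2 FPKM after IFNβ. Both groups were tight and far apart. The mean rose 2.60-fold, from 12.6 ± 0.203 to 32.8 ± 0.374 FPKM (S.D., n = 3 each), or 1.37 on the log2 scale (SE 0.02, 95% interval 1.32 to 1.42, limma adjusted p = 1.4e-07). SIRPA itself, which was also present in these cells, was at 10.1, 9.52 and 10.0 FPKM in untreated cells and lower, at 8.44, 7.34 and 8.22 FPKM, after IFNβ. The ratio of CD47 to SIRPA went from 1.28 ± 0.0299 to 4.11 ± 0.280 (S.D., n = 3 each).

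Of 14 other genes of the CD47 axis, 11 were tested and 1 was a DEG, which was higher, against 3.49% of all genes tested. The median log2 fold change of the 11 was 0.01. The DEG was THBS1, thrombospondin-1, a secreted CD47 ligand, which went from 83.1 ± 5.61 to 176.8 ± 1.27 FPKM (S.D., n = 3 each), or 1.09 on the log2 scale (SE 0.05, limma adjusted p = 1.6e-05). CALR, calreticulin, a signal for engulfment that CD47 opposes, averaged 444 FPKM untreated and 549.6 FPKM treated (log2 fold change 0.31). PTPN11 (SHP2), a phosphatase that acts downstream of SIRPA and PD-1, had a log2 fold change of -0.63 and UBQLN1 had one of -0.04. None of these 3 was a DEG.

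NT5E makes adenosine from AMP outside the cell. NT5E (ENSG00000135318, chromosome 6 from 85449584 to 85495791) was at 0.106, 0.0967 and 0.101 FPKM in untreated cells, or 11, 13 and 15 fragments. After IFNβ it was at 0.695, 0.954 and 0.748 FPKM, or 97, 108 and 98 fragments. The groups were well apart, but at low levels in both. The mean was 7.90 times higher (0.101 ± 0.00481 against 0.799 ± 0.137 FPKM, S.D., n = 3 each), and the log2 fold change was 2.15 (SE 0.18, 95% interval 1.71 to 2.59, limma adjusted p = 0.00028). With a pseudocount of 1 it was 0.71 and NT5E was no longer a DEG. After IFNβ NT5E had the lowest FPKM of the 10 genes.

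None of the other adenosine genes was a DEG. Of 17 listed 9 were tested, with a median log2 fold change of -0.26, and by adjusted p-value alone 0 were higher and 3 lower, against 15.2% and 17.5% of all genes tested. An unadjusted p-value under 0.05 was reached by 6 of the 9, against 41.6% of all genes tested, and limma-voom called 0. The 3 lower genes were SLC29A1, ADK and AMPD3. SLC29A1, which carries adenosine into the cell, had a log2 fold change of -0.34 (limma adjusted p = 0.00018). ADK, which phosphorylates adenosine, had one of -0.20 and AMPD3 one of -0.40 (limma adjusted p = 0.0095 and 0.029). ENPP1, which makes AMP from ATP or cGAMP, had one of -0.19 and was not counted as lower (limma adjusted p = 0.05).

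TNFRSF14 encodes HVEM, which inhibits T cells through BTLA and CD160 and stimulates them through LIGHT. TNFRSF14 (ENSG00000157873, chromosome 1 from 2555639 to 2565382) was at 0.859, 0.949 and 0.880 FPKM in untreated cells and at 2.27, 2.28 and 2.26 FPKM after IFNβ. The treated libraries were nearly equal and above all untreated ones. The mean rose 2.53-fold, from 0.896 ± 0.0470 to 2.27 ± 0.0127 FPKM (S.D., n = 3 each), or 1.25 on the log2 scale (SE 0.07, limma adjusted p = 5.3e-05). With a pseudocount of 1 it was 0.79, under the fold threshold. Of its exons, 13.4% (831 bp) overlap those of TNFRSF14-AS1 on the other strand, which averaged 0.0137 FPKM untreated and 0.0642 FPKM treated.

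Of 12 other genes of the HVEM and LIGHT axis, 7 were tested and 1 was a DEG, which was higher, against 3.49% of all genes tested. The median log2 fold change of the 7 was 0.22. The DEG was TNFRSF1B (TNFR2), which went from 11, 11 and 15 fragments to 74, 32 and 53, a log2 fold change of 1.42 (SE 0.25, limma adjusted p = 0.0059). TNFRSF1A (log2 fold change 0.04), LTBR (0.29), the lymphotoxin β receptor, and TRAF2 (-0.17) were not DEGs.

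Across the 10 lists 162 genes were listed, 104 were tested and 14 were DEGs, all of them higher. Over all genes tested, 3.49% were DEGs in the higher direction and 0.739% in the lower, that is 722 and 153 of 875 DEGs. The lists were chosen with results of these data known, as were the 10 genes, so the counts describe these genes and no more.

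The order of the 10 levels changed little. In untreated cells it ran, from high to low, LGALS3BP, CMTM6, CD276, CD47, CD274, PDCD1LG2, TNFRSF14, NT5E, LGALS9 and IDO1. Only the neighbours NT5E and LGALS9 overlapped between libraries. After IFNβ the first 5 kept their places, LGALS9 moved from ninth to sixth place, and IDO1 passed NT5E. Only CD274 and LGALS9 then overlapped between libraries. Within each treated library CD274 was above LGALS9 (17.9 against 17.0, 17.0 against 16.2 and 16.4 against 15.9 FPKM). By size of the log2 fold change with a pseudocount of 0.1 the order was LGALS9, IDO1, NT5E, LGALS3BP, PDCD1LG2, CD47, TNFRSF14 and CD274, followed by CD276 and CMTM6. This order depends on the pseudocount. With a pseudocount of 1, IDO1 (1.28) came after CD47 (1.31), and NT5E (0.71) came after TNFRSF14 (0.79).

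**Figure D2:**
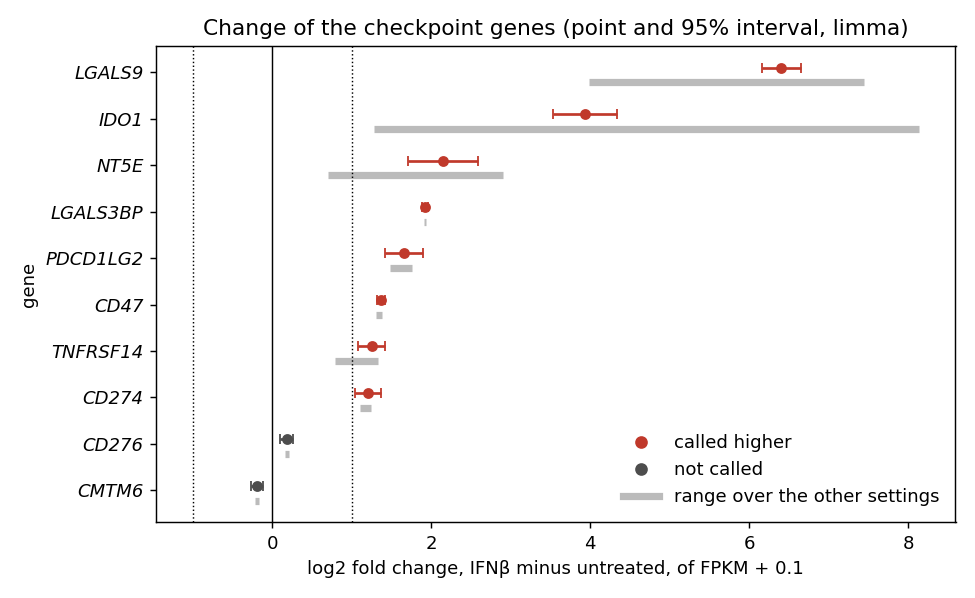
Log2 fold change (IFNβ minus untreated, of FPKM + 0.1) of each of the 10 genes with its 95% interval from limma (red for DEGs, dark grey for the others), and in light grey the range over the other settings tried. The dotted lines mark -1 and 1, and the wide light bars of IDO1 (1.28 to 8.14), LGALS9 (3.99 to 7.45) and NT5E (0.71 to 2.91) belong to genes with 16 or fewer fragments in each untreated library.

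The DEGs among the 10 genes were compared with the 11996 genes at a mean FPKM of at least 1, by the root mean square difference of log2(FPKM + 0.1) after subtracting the untreated mean, over the 6 libraries. The nearest profiles to CD274 were those of COL8A1 (0.04), TRIM25 (0.06) and CSF1 (0.07), and to PDCD1LG2 those of NAPA (0.10), an unnamed gene, ENSG00000290620 (0.11), and CMTR1 (0.12). Among the nearest to CD47 were TRAFD1 and TAP2, of which TAP2 carries peptides for HLA class I. LGALS3BP was nearest to B2M, the light chain of HLA class I (0.02), TRIM38 and PNPT1. TNFRSF14 was nearest to ENDOD1, RNF122 and STING1. For genes with few untreated fragments the match depends on the pseudocount and says nothing of equal folds. NT5E was nearest to IFITM2 and WARS1 on this scale, yet its mean was 7.90 times higher and that of WARS1 4.59 times. IDO1 and LGALS9 are given no nearest profiles for the same reason.

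The libraries held markers of the labelled line and few of other cell types. The 6 mesenchymal markers summed to between 730 and 780 FPKM in untreated cells and between 767 and 800.5 FPKM after IFNβ, with VIM highest, COL1A2 under 0.1 FPKM and COL1A1 at a mean of 0.341 FPKM untreated and 0.706 FPKM treated. The 6 T cell markers summed to at most 0.117 FPKM in any library, the 4 B cell markers to at most 0.102, the 4 NK cell markers to at most 0.195 and the 5 epithelial markers to at most 0.0937. The 4 endothelial markers summed to 0.268 to 0.421 FPKM in untreated cells and 0.471 to 0.529 FPKM after IFNβ. The 6 myeloid markers summed to 1.14 to 1.21 and 1.27 to 1.31 FPKM, mostly CSF1R, with PTPRC at most at a mean of 0.00830 FPKM. Depth was between 22848104 and 32915500 fragments per library, and 1 fragment of a 1 kb gene was worth 0.0304 to 0.0438 FPKM.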

How the data were processed

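HT1080 libraries (3 untreated, 3 IFNβ-treated) were sequenced by the authors as paired ends after mRNA enrichment. The authors deposited FPKM, with a column per library and a row per Ensembl gene ID, unpooled. The submitters' processing notes name fastp, HISAT2, StringTie and the build GRCh38, with no versions, and the paper names DESeq2 for its own tests. The annotation and strand setting are not given in the sources used here. Of the gene IDs, 4436 are not in GENCODE release 29, from which locations and overlaps were taken, so the authors' gene bounds may differ.

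FPKM values were whole multiples of the value of 1 fragment, which gave the depth of each library and whole fragments for 100% of the 35303 genes above 0. For 16344 genes the release 29 exon length was used, with values whole within a share of 1e-05. For 18959 genes, IDO1 among them, fragments were read from the ratios between libraries as the lowest integers that fit within 0.001, so that their fragments are the fewest possible. Where a group had at most 3 fragments in every library, a fold is a lower bound against 3 fragments per library, which covers counting error only.

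The test was that of limma 3.58.1 under R 4.3.3, with lmFit and eBayes with a trend, on log2(FPKM + 0.1), without covariates, on genes that averaged 0.1 FPKM or more. FPKM are not counts, so no count test was the main test. The pseudocount makes the changes of low genes look smaller. The procedure was tried on simulated fragments, where 184 of 200 changed genes were called, among 205 calls in all. The remaining calls fell on unchanged genes. That simulation used a log2 change of 2 in either direction and the same spread for all genes. Its changed genes were all drawn from levels above those of LGALS9, NT5E and IDO1 in untreated cells. It therefore says nothing of how well changes in genes that low are found. Other steps used Python 3.11.15 with pandas 2.3.3, numpy 2.4.6 and matplotlib 3.10.9.

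The 10 genes, the lists and the alternatives were chosen with earlier results of these data known. The genes named were all 10, up to 5 DEGs and the 3 most abundant other tested genes of each list, 3 nearest profiles and the 2 nearest protein-coding genes on each side of a DEG. Some genes that this rule names are not reported here. The alternatives were other pseudocounts (0.01 and 1), other filters (none, an average of 1 FPKM or more), other scalings (equal totals, median ratio, quantiles), eBayes without trend, limma-voom on recovered fragments, no fold threshold, a replicate block and each library left out.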

Additional observations from a re-analysis of the deposited data

How the results depend on the processing

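The number of the 10 genes that were DEGs was 8 in every setting but 3. It was 6 where 1 FPKM on average was required, since IDO1 and NT5E were then not tested, 6 with a pseudocount of 1, where NT5E (0.71) and TNFRSF14 (0.79) fell under the fold threshold, and 10 with no fold threshold. With single libraries left out it stayed at 8. No log2 fold change of a member changed sign. Over all genes tested, 875 DEGs became 425 where 1 FPKM on average was required and 304 with a pseudocount of 1. They became 1100 with limma-voom on recovered fragments and 6778 with no fold threshold. With single libraries left out they ranged from 809 to 867. Of the pathway lists, 14 DEGs became 10 where 1 FPKM on average was required and 9 with a pseudocount of 1. They became 16 with no filter and 62 with no fold threshold (36 higher, 26 lower). With single libraries left out they ranged from 14 to 15. With no fold threshold, 15.2% of all genes tested were higher and 17.5% lower. Genes with few untreated fragments depend on the pseudocount by construction. For the other changes the cause was not tested. The scalings shifted the median over all genes tested to -0.06 at most.

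Replicate numbers are shared between the groups, and the labels do not say whether same-numbered libraries were handled together. Same-numbered libraries deviated together with correlations of 0.014, 0.023 and 0.031, which cannot tell whether they were paired. Each library correlated best with its own number, which is only a hint, because deviations from a group mean are not independent. With the replicate block there were 829 DEGs in all, 8 of the 10 genes and 14 of the list genes.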

Other observations

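Of the 162 genes in the lists of related pathways, 58 lay under the filter of a mean FPKM of 0.1 and were not tested. Of these, 3 that were seen mainly after IFNβ are named here after their values were seen. KMO, the enzyme after IDO1 and AFMID in the kynurenine pathway, had 2, 5 and 2 fragments in untreated cells and 20, 26 and 29 after IFNβ. SIRPB2, a relative of SIRPA, had 1, 0 and 1 against 28, 20 and 23 fragments, at least 7.74-fold higher. CD40, a costimulatory receptor, had 8, 6 and 13 fragments after IFNβ and none in untreated cells, a rise of at least 2.94-fold. Fitted without the filter, 2 of the 44 untested list genes above 0 were DEGs, both higher. Of all 35303 genes in that fit, 738 were DEGs in the higher direction and 146 in the lower. The 2 were KMO and SIRPB2 (limma adjusted p = 0.012 and 0.0023), and CD40 was not a DEG. All of these counts are low, and each gene's IFNβ-treated libraries lay above its untreated ones. The same held for PDCD1, DPP4 and ADORA2A, which were not DEGs. KMO, SIRPB2 and CD40 were picked by their values, so their p-values and lack of overlap add no support.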
